A study of Arabidopsis thaliana with 26 samples.

Results

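AT1G16850, AT1G51090, AT1G11210 and AT2G16890 are 4 Arabidopsis genes whose transcripts were low in untreated plants and among the largest rises after a day of cold, and for which the annotation used here gives a locus number in place of a gene symbol. They were chosen by their cold minus control change, as the largest rises outside the established cold-regulated (COR) genes, through probe sets whose annotation names that gene alone. Each gene has 1 such probe set, so the 4 genes stand for 4 of the 22810 probe sets on the array and 4 of the 13286 genes that could be tied to a locus. RefSeq lists all 4 as protein-coding, 3 on chromosome 1 and AT2G16890 on chromosome 2, with 1 transcript each for the first 3 and 4 transcripts for AT2G16890. No function is assigned to them below, because neither the files nor the reference gives one.

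Transcript levels came from aerial tissue of Arabidopsis thaliana on 26 Affymetrix ATH1 arrays, with 2 arrays in each of 13 groups and 18 plants pooled for each sample. The lines labelled sf6, sf3 and sf2 carry chemically induced (EMS) mutations that the series title ties to sfr6, sfr3 and sfr2, genes known for freezing sensitivity when mutated, and wild type (wt) was Columbia-0. Plants of these 4 lines grew on agar medium under continuous light, at 21 °C and a humidity of 100%, and were harvested after 24 h at 4 °C in the light (cold) or untreated (control). Excised aerial tissue of sf6 and wt was also left to dry in a laminar airflow during 2 h (drought), a treatment with no cut but undried group beside it, so cutting and drying cannot be told apart. For the groups that the labels code as 00f, 03f and 24f, plants stood on compost with Intercept at 4 °C and a humidity of 70%, under 9 h of light and 15 h of dark. Their labels give neither a genotype nor the meaning of the code, so these 6 arrays were tested only against each other, and where their levels are set beside those of the agar groups no test was made.

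Plants such as Arabidopsis gain freezing tolerance during days at low but non-freezing temperature, a process called cold acclimation. Cold induces CBF transcription factors, which bind a short promoter element and switch on COR genes, many of which encode hydrophilic proteins that protect membranes and proteins when cells lose water. Drying switches on an overlapping set of genes through related DREB factors and through abscisic acid, and SFR6 is known as a subunit of the Mediator complex required for normal COR gene induction in the cold. Large parts of the cold response also depend on the time of day, through the circadian clock.

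Every array had been scaled to a trimmed mean intensity of 100.01, and array medians lay between 38.2 and 44.4. The mutated genes have no named probe set, so the genotype labels were not checked on their transcripts. Low COR gene levels in the cold are known of sfr6 mutants, and the arrays labelled sf6 cold did not show them: COR15A, COR15B, COR47 and LTI30 differed from wt cold by -0.12 to 0.06 in log2(intensity + 16) (limma adjusted p 0.977 to 0.983). Of 10 green-tissue markers 4 had a named probe set, and their summed intensity was high on all arrays, from 6277.6 to 12607. Of 10 root markers only PYK10 had one, which encodes a beta-glucosidase abundant in roots and hypocotyls. PYK10 lay between 803 and 1088.8 on cold arrays, against 1285.9 to 1659.1 on control arrays, and between 16.9 and 129.4 on the compost arrays, and its part in the results below was not tested. Because tissue was measured in bulk, fewer cells of a type and less RNA per cell cannot be told apart. Precision is limited by the number of arrays. The labels do not say whether the paired arrays of a group came from separate cultures, so p-values measure only the spread among these samples, and that spread may be technical.

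The cold rises are the values on which the genes were chosen, so they are given as a description with no test. Changes are differences of log2(intensity + 16), which understate the change of dim probe sets. AT1G16850 had the largest cold change of all 9405 genes ranked in sf6, sf2 and wt, and the second largest in sf3. Its intensity was 1204.4 and 1092.6 in sf6 cold, 915.4 and 1174.8 in sf3 cold, 879.9 and 978.8 in sf2 cold, and 1009 and 1263.5 in wt cold. Without cold it was dim, with 7.6 and 4.2 in sf6 control, 15.6 and 29.9 in sf3 control, 2.3 and 3.5 in sf2 control, and 2.9 and 3.5 in wt control. The change was 5.74 in sf6, 4.79 in sf3, 5.64 in sf2 and 5.90 in wt (SE 0.17 each). COR15A, which encodes a small protein imported into the chloroplast, ranked next below it in sf6 (5.61), sf2 (5.26) and wt (5.67).

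AT1G51090 had the largest change in sf3 and ranked 4 in the other lines, next below the dehydrin gene LTI30. Its intensity was 958.4 and 994.3 in sf6 cold, 933.1 and 1027.3 in sf3 cold, 714.6 and 785 in sf2 cold, and 1060.7 and 1080.4 in wt cold. The 8 control arrays lay between 11.8 and 22.4 with a median of 16.3, the narrowest range of control values among the 4 genes. The change was 5.06 in sf6, 4.83 in sf3, 4.60 in sf2 and 5.04 in wt (SE 0.11 each).

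AT1G11210 was the least uniform of the 4 across untreated plants. Its intensity in cold was 403.8 and 458.8 in sf6, 341 and 374.1 in sf3, 273.3 and 356.7 in sf2, and 340.2 and 391.4 in wt. In control it was 8 and 3.1 in sf6, 42.2 and 40.4 in sf3, 4.7 and 5.6 in sf2, and 5 and 25.3 in wt. The sf3 control arrays were thus above all other control arrays, and the wt control arrays differed more from each other than those of any other line. The change was 4.38 in sf6, 2.70 in sf3, 3.96 in sf2 and 3.69 in wt (SE 0.21 each), and its rank was 5 in sf6 and sf2, 11 in wt and 24 in sf3. In wt it stood just above APL3 (3.69), a gene for a subunit of the starch-synthesis enzyme ADP-glucose pyrophosphorylase, and in sf3 just below AT2G17280 (2.76).

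AT2G16890 had an intensity of 469.4 and 455.2 in sf6 cold, 349.5 and 411.6 in sf3 cold, 384.3 and 335.3 in sf2 cold, and 413.8 and 432.6 in wt cold. Its 8 control arrays lay between 1.6 and 17.7 with a median of 9.7. The change was 4.2 in sf6, 4.2 in sf3, 3.69 in sf2 and 4.07 in wt (SE 0.18 each), with ranks of 7, 3, 7 and 9 in the same order of lines. In wt the gene ranked next above it was AT1G48100 (4.08), which is not among the 4, so they are not the full set of leading genes without a symbol. For all 4 genes every cold array exceeded every control array.

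**Figure D1:**
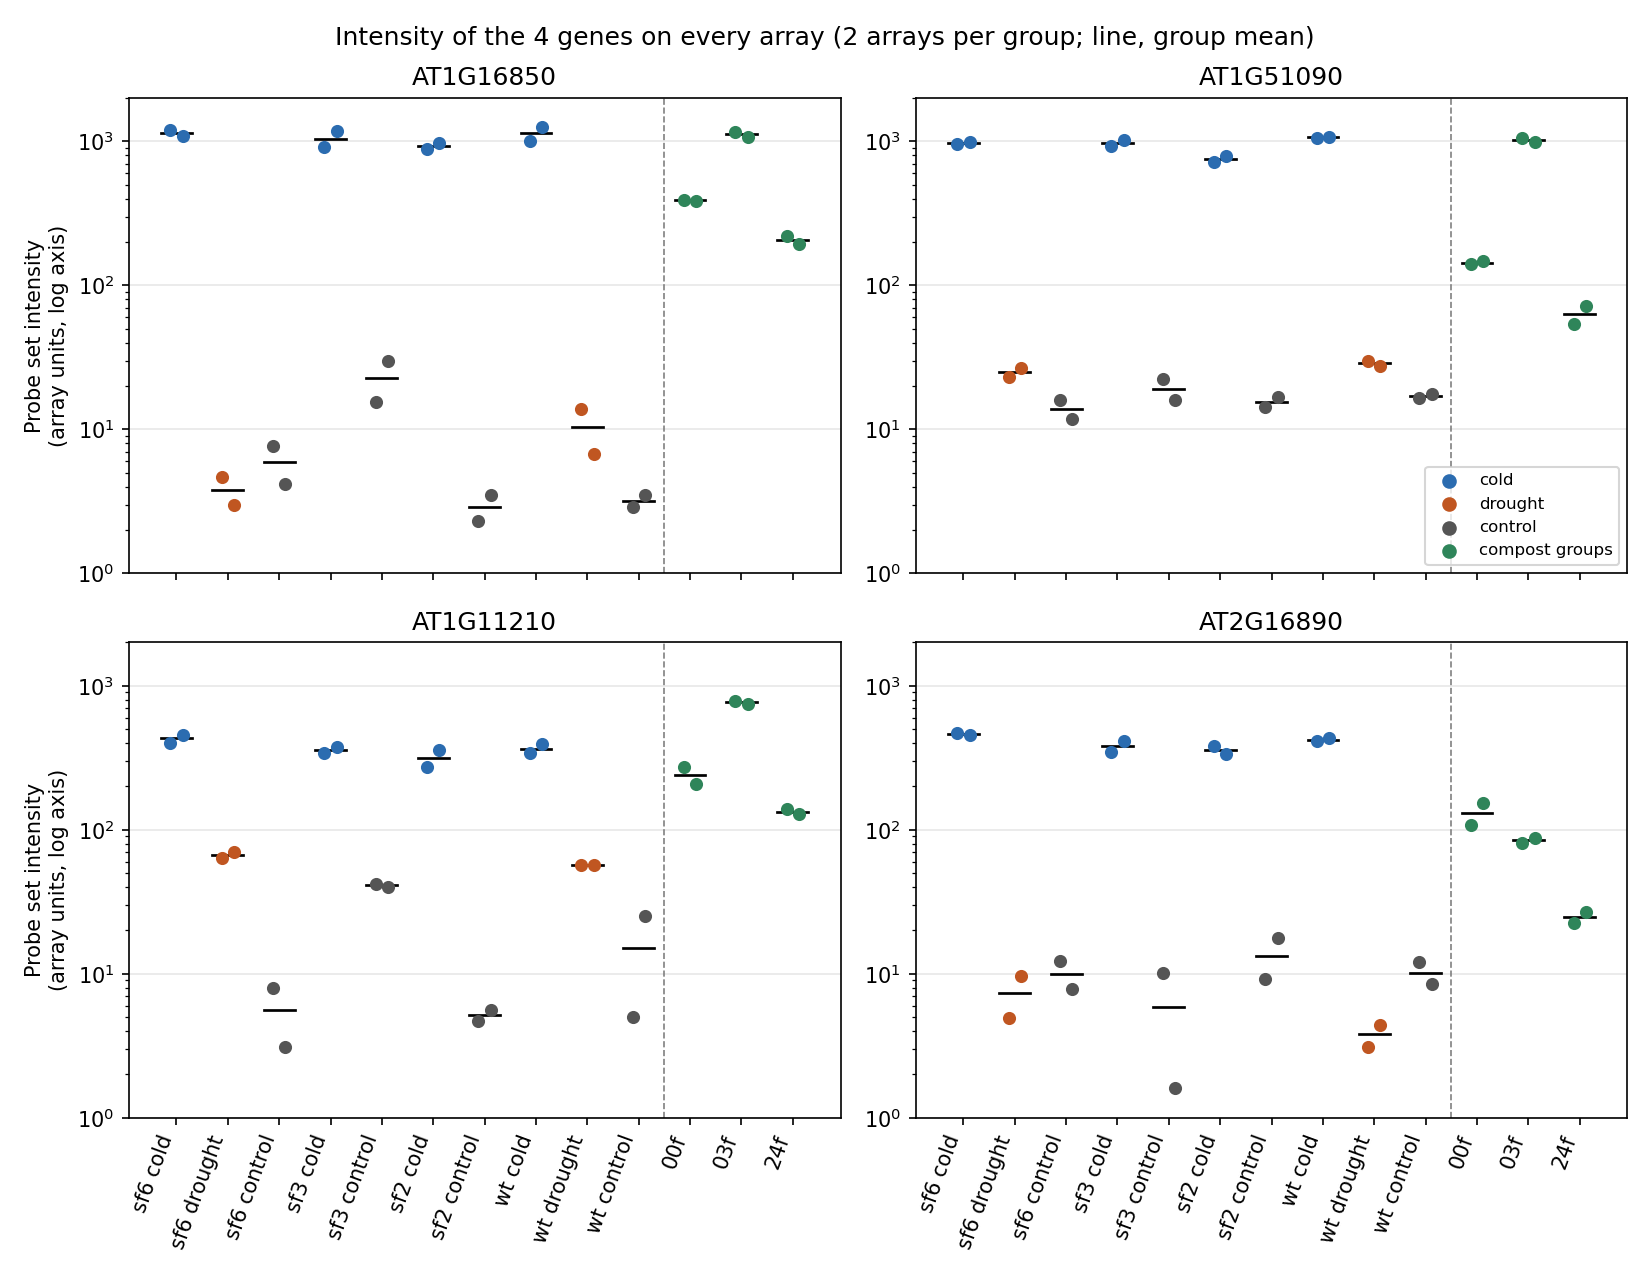
Intensity of each gene's probe set on every array (log axis, array units), with the 2 arrays of a group as points and the group mean as a line. Agar groups are left of the dashed line and compost groups right of it. Cold arrays lie between 273.3 and 1263.5 for the 4 genes, control arrays between 1.6 and 42.2, and the drought arrays of AT1G11210 (56.6 to 70.5) lie above all its control arrays and below all its cold arrays.

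Cold arrays of the mutant lines were compared with wt cold arrays to see whether any line reached another level in the cold. The same arrays entered the cold rises on which the genes were chosen. None of the 4 genes passed the threshold in any line (limma, Benjamini-Hochberg adjusted p under 0.05 over 17059 probe sets). For sf6 cold against wt cold the changes lay between -0.13 and 0.23 (adjusted p 0.863 to 0.993), for sf3 between -0.15 and -0.03 (0.953 to 0.994), and for sf2 between -0.51 and -0.21 (0.0803 to 0.768). The largest was AT1G51090 in sf2, with 749.8 ± 49.8 in sf2 cold and 1070.6 ± 13.9 in wt cold (SD, n = 2 each, change -0.51, SE 0.11, limma adjusted p = 0.0803). Its 2 sf2 arrays were below both wt arrays, an order whose share over all probe sets was not counted. At an unadjusted p under 0.05 AT1G51090 was 1 of the 4 genes in sf2, against 0 in sf6 and 0 in sf3. Of all 17059 probe sets 1891 were under it in sf2, 1168 in sf6 and 1002 in sf3. Few probe sets were called at all in these comparisons: 0.0117% in sf6, 0.0234% in sf3 and 0.117% in sf2.

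Of the untreated mutant lines, sf3 had the one call among the 4 genes with all arrays in the fit. The control arrays entered the cold rises on which the genes were chosen, so this call is not independent of the choice. AT1G16850 averaged 22.8 ± 10.1 in sf3 control and 3.2 ± 0.4 in wt control (SD, n = 2 each), and was the only one of the 4 genes to pass the threshold (change 0.99, SE 0.17, limma adjusted p = 0.034), where 0.123% of probe sets were called. AT1G11210 averaged 41.3 ± 1.3 in sf3 control and 15.2 ± 14.4 in wt control, a change of 0.96 (SE 0.21, limma adjusted p = 0.148). Both sf3 arrays were above both wt arrays for these 2 genes, an order whose share over all probe sets was not counted. The AT1G16850 call did not hold without wt control replicate 1 (change 0.97), wt control replicate 2 (1.01) or sf3 control replicate 2 (0.72). Its change moved little without either wt array, and why the call was lost was not tested. AT1G11210 leaned on single wt control arrays. Its change was 0.47 to 1.45 leaving out 1 array, highest without wt control replicate 2. AT1G51090 (0.08) and AT2G16890 (-0.29) did not pass (adjusted p 0.946 and 0.835). AT1G16850 and AT2G16890 were testable in this comparison only through the cold arrays, since their means over the sf3 and wt control arrays alone lay below the filter on low values.

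A difference of cold responses contains the control difference by construction, so it is no separate result from the control levels above. The cold response of sf3 minus that of wt was -1.11 for AT1G16850 (SE 0.25), -0.99 for AT1G11210 (SE 0.30), -0.21 for AT1G51090 (SE 0.15) and 0.14 for AT2G16890 (SE 0.25), given as a description since the contrasts chose the genes. The value of AT1G11210 moved with the wt control arrays, to -0.50 without wt control replicate 1 and -1.48 without wt control replicate 2. In the cold itself AT1G16850 and AT1G11210 differed between sf3 and wt by -0.12 and -0.03. A list of 16 genes held CBF genes, their targets, COR genes and the regulator ZAT12, and 4 of them were measured. Of these 4, COR15A and LTI30 were also higher in sf3 control than in wt control, by 1.49 (limma adjusted p = 0.000444) and 1.28 (0.00446). The LTI30 call ended without wt control replicate 1 or sf3 control replicate 2 (adjusted p up to 0.662 over all settings), and both ended when the fit held only the control arrays of sf3 and wt (0.263 for COR15A). COR15B and COR47, a dehydrin gene, differed by 0.05 and 0.01 and did not pass.

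In sf6 control and sf2 control none of the 4 genes passed the threshold against wt control (limma). These arrays, too, entered the cold rises on which the genes were chosen. AT1G16850, AT1G11210 and AT2G16890 were dim in the control groups of sf6, sf2 and wt. Their group means there lay at 2.9 to 5.9, 5.2 to 15.2 and 10.0 to 13.4, in that order of genes. The filter on low values stood at an intensity of about 12.9. Testing these genes here thus leaned on brighter arrays of the same fit, and a change could not be seen well. The changes lay between -0.46 and 0.19 in sf6 (adjusted p 0.459 to 0.99) and between -0.48 and 0.15 in sf2 (0.508 to 0.989). At an unadjusted p under 0.05 there was 1 gene of 4 in each, AT1G11210, and 1821 of all probe sets in sf6 and 1576 in sf2. This comparison turns on the wide spread of AT1G11210 in wt control: without wt control replicate 1 it was lower by 0.95 in sf6 and 0.97 in sf2 and was called (limma adjusted p = 0.0161 and 0.0153), and without wt control replicate 2 the changes were 0.03 and 0.01. Over all probe sets 0.0293% were called in sf6 control and 0.111% in sf2 control. The cold response of sf6 minus that of wt was -0.16 for AT1G16850, 0.02 for AT1G51090, 0.69 for AT1G11210 (SE 0.30) and 0.14 for AT2G16890. That of AT1G11210 was 1.18 without wt control replicate 1 and 0.20 without wt control replicate 2. In sf2 the same difference was -0.26, -0.44, 0.26 and -0.38 in that order of genes.

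Drying asks whether a gene chosen for its cold rise also responds to loss of water. The drought arrays played no part in the choice, while the control arrays did and are shared with the cold contrast. AT1G11210 rose in both lines. Its intensity was 63.8 and 70.5 in sf6 drought, against 8 and 3.1 in sf6 control, and 57 and 56.6 in wt drought, against 5 and 25.3 in wt control. The change was 1.96 in sf6 (SE 0.21, limma adjusted p = 6.67e-05) and 1.31 in wt (SE 0.21, limma adjusted p = 0.00104), and the call was kept under all 13 alternatives in each line. The size in wt was less certain, 0.82 without wt control replicate 1 and 1.79 without wt control replicate 2. All drought arrays were above all control arrays, and below all cold arrays of the same gene, an order whose share over all probe sets was not counted.

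AT1G51090 moved in the same direction by less. It averaged 25 ± 2.5 in sf6 drought and 13.9 ± 3.0 in sf6 control (SD, n = 2 each; change 0.46, SE 0.11, limma adjusted p = 0.0271). In wt it averaged 28.8 ± 1.6 in drought and 17 ± 0.6 in control (change 0.44, SE 0.11, limma adjusted p = 0.0175). The groups did not overlap in either line, an order whose share over all probe sets was not counted. The wt call ended without any 1 of the 4 wt drought and control arrays (change 0.40 to 0.47). In sf6 it ended without sf6 control replicate 2 (change 0.36), sf6 drought replicate 1 (0.52) or sf6 drought replicate 2 (0.39).

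AT1G16850 and AT2G16890 were not called in drying. AT1G16850 had an intensity of 4.7 and 3 in sf6 drought, against 7.6 and 4.2 in sf6 control (change -0.14, limma adjusted p = 0.744), and 13.9 and 6.7 in wt drought, against 2.9 and 3.5 in wt control (0.44, 0.129). AT2G16890 had 4.9 and 9.7 in sf6 drought, against 12.2 and 7.9 in sf6 control (-0.16, limma adjusted p = 0.694), and 3.1 and 4.4 in wt drought, against 12 and 8.5 in wt control (-0.41, 0.168). Both probe sets were very dim in these groups. They passed the filter on low values (an intensity of about 12.9) only through the cold arrays, and with drought and control arrays alone they would not have been tested, so a change could not be seen well here. The largest cold riser, AT1G16850, was near the bottom of the scale after 2 h of drying in both lines.

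In all, 2 of the 4 genes rose in drying in sf6 and the same 2 in wt, where 2.13% and 4.83% of all probe sets were called higher and 3.91% and 9.79% were called in either direction. The median change of the 4 was 0.16 in sf6 and 0.44 in wt, beside -0.007 and -0.025 over all probe sets. Between sf6 drought and wt drought none of the 4 was called (changes -0.39 to 0.23, limma adjusted p 0.666 to 0.906), where 0.00586% of probe sets were called. At an unadjusted p under 0.05 there was 1 gene of the 4, and 1229 of all probe sets. The test of the difference between the drying responses of sf6 and wt called none either (-0.58 to 0.65, limma adjusted p 0.755 to 0.991, 2 genes at an unadjusted p under 0.05). That test called 0.0% of all probe sets, with 1098 at an unadjusted p under 0.05. Of the 4 measured CBF targets and COR genes 1 rose in drying in each line, COR15B by 1.29 in sf6 (limma adjusted p = 0.0435) and 1.17 in wt (0.0403), and both calls ended without any 1 of the arrays compared. Of 15 dehydration and abscisic acid genes 3 were measured: LEA4-5, a late embryogenesis abundant protein gene, changed by 0.58 in sf6 and 0.86 in wt (limma adjusted p = 0.377 and 0.11), and neither RD2 (-0.11 and -0.10) nor DI19 (0.33 and 0.23) passed. PYK10, the root marker, was lower in drought by 0.81 in wt (limma adjusted p = 0.000428), and its part in these values was not tested.

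**Figure D2:**
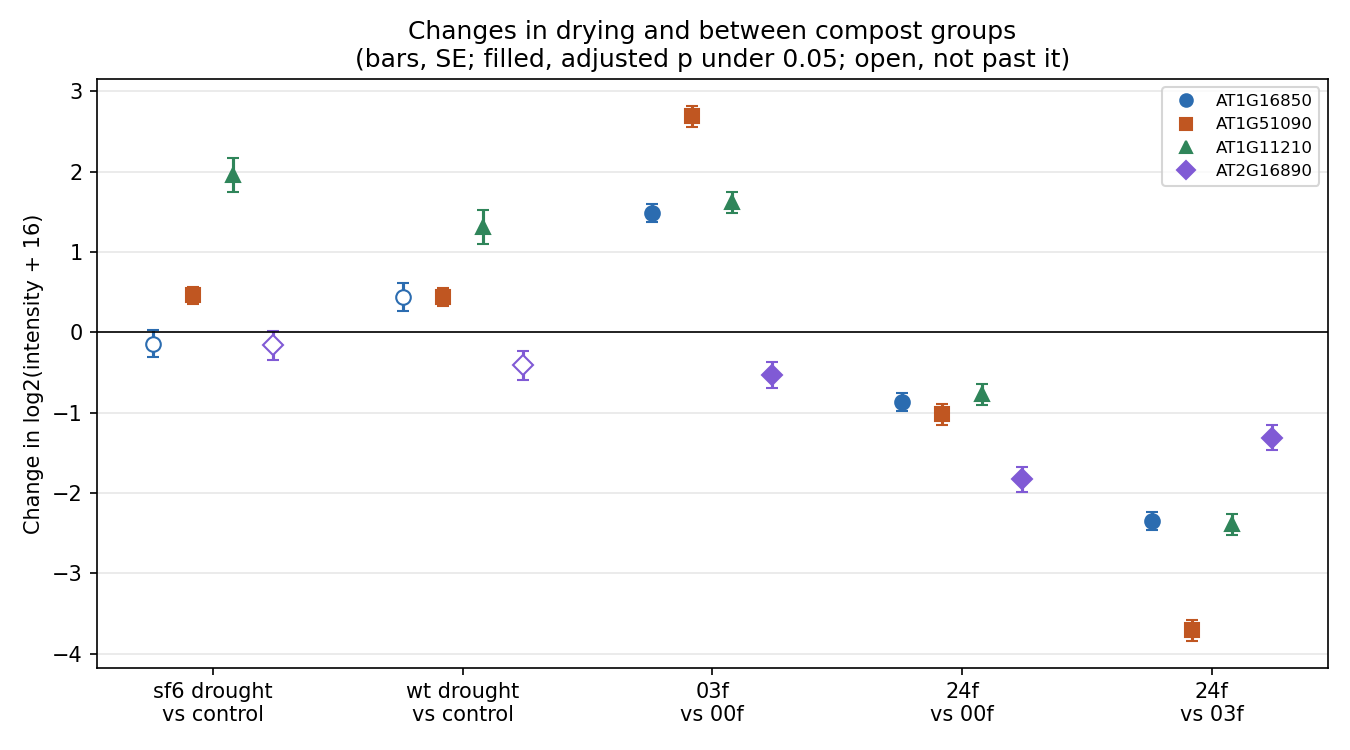
Change in log2(intensity + 16) of the 4 genes in drying (sf6 and wt) and between the compost groups, with SE as bars and filled symbols for an adjusted p under 0.05. AT1G11210 rises in drying in both lines (1.96 and 1.31), and AT2G16890 is the one gene of the 4 that is lower in 03f than in 00f (-0.53) while the others are higher (1.49 to 2.69).

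The compost arrays were not used in choosing the genes, and here the 4 genes separated into 3 that peaked in 03f and 1 that did not. The labels give 4 °C as the growth temperature of all 3 groups and name no treatment temperature. On the compost arrays all 4 genes were above every one of their control arrays from agar at 21 °C, a comparison across growth regimes with no test. AT1G51090 had an intensity of 140.8 and 146.7 in 00f, 1047.7 and 983 in 03f, and 54.3 and 72.3 in 24f. Its level in 03f was 7.06 times that in 00f (change 2.69, SE 0.13, limma adjusted p = 1.2e-07), the largest change of the 4. Its level in 24f was 0.06 times that in 03f (-3.71, limma adjusted p = 2.89e-08) and 0.44 times that in 00f (-1.02, 9.14e-05). The 03f arrays lay within the range of the 8 cold arrays (714.6 to 1080.4).

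AT1G16850 had an intensity of 391.9 and 386.5 in 00f, 1169 and 1073.4 in 03f, and 220.8 and 192.5 in 24f. It was 2.88 times as high in 03f as in 00f (change 1.49, SE 0.11, limma adjusted p = 4.07e-06). In 24f it was 0.18 times its level in 03f (-2.35, limma adjusted p = 1.23e-07) and 0.53 times its level in 00f (-0.87, 0.000141). Its 03f arrays, too, lay within the range of the cold arrays (879.9 to 1263.5).

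AT1G11210 had an intensity of 272.7 and 208.3 in 00f, 783.3 and 750.5 in 03f, and 138.6 and 127.8 in 24f. It was 3.19 times as high in 03f as in 00f (change 1.62, SE 0.13, limma adjusted p = 6.17e-06). In 24f it was 0.17 times its level in 03f (-2.39, limma adjusted p = 2.56e-07) and 0.55 times its level in 00f (-0.77, 0.000771). The highest level of this gene in the whole series was in 03f, above all 8 cold arrays (273.3 to 458.8), whereas for AT1G16850 and AT2G16890 the highest group mean was in sf6 cold and for AT1G51090 in wt cold.

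AT2G16890 followed another order. Its intensity was 108.2 and 153.4 in 00f, 81.4 and 88.3 in 03f, and 22.6 and 27 in 24f, all far below its cold arrays (335.3 to 469.4). It was lower in 24f than in both other groups, at 0.19 times its level in 00f (change -1.83, SE 0.16, limma adjusted p = 7.51e-06) and 0.29 times its level in 03f (-1.31, limma adjusted p = 5.71e-05). In 03f it was 0.65 times its level in 00f (-0.53, limma adjusted p = 0.0267). This last call is weak. It ended without 00f replicate 2 (-0.30, adjusted p = 0.192), 03f replicate 1 (0.137) or 03f replicate 2 (0.0753), and with every array scaled to the same median (-0.37, 0.122). The median of all probe sets was itself -0.132 between 03f and 00f. The groups did not overlap for any of the 4 genes in any of the 3 comparisons, but the share of all probe sets without overlap was not counted.

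Many genes differed between these groups, so the counts have a high background. In 03f against 00f 3 of the 4 genes were higher, where 11.5% of probe sets were called higher and 30.3% in either direction. In 24f against 00f all 4 were lower, where 21.4% were called lower and 42.2% in either direction, and in 24f against 03f all 4 were lower, where 19.8% and 46.4% were. The median change of the 4 was 1.55, -0.94 and -2.37 in these comparisons, beside -0.132, 0.016 and 0.086 over all probe sets. The balance of all calls moved with the scaling. In 03f against 00f 38.1% of calls were higher as deposited and 61.5% with arrays scaled to their medians, and in 24f against 03f the shares were 57.2% and 41.8%. The calls of AT1G16850, AT1G51090 and AT1G11210 in all 3 comparisons held under all 13 alternatives of each comparison.

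The named COR genes showed a mixed order across the same groups. COR47 was higher in 03f than in 00f by 1.22 (limma adjusted p = 4.89e-05), while COR15A (0.00), COR15B (-0.15) and LTI30 (0.30) did not pass. All 4 were lower in 24f than in 03f (-1.51 to -0.91), and COR15A (-0.90), COR15B (-1.67) and LTI30 (-0.98) were lower in 24f than in 00f. Of the 3 dehydration and abscisic acid genes measured, LEA4-5 was higher in 03f than in 00f by 3.33 (limma adjusted p = 2.07e-08), more than any of the 4 little-known genes. In 24f it was above 00f by 1.5 (limma adjusted p = 3.73e-06), as did DI19 (1.29), a zinc-finger protein gene, and RD2 (0.12) did not pass. PYK10 was higher in 24f than in 00f by 1.70, and its part was not tested.

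**Figure D3:**
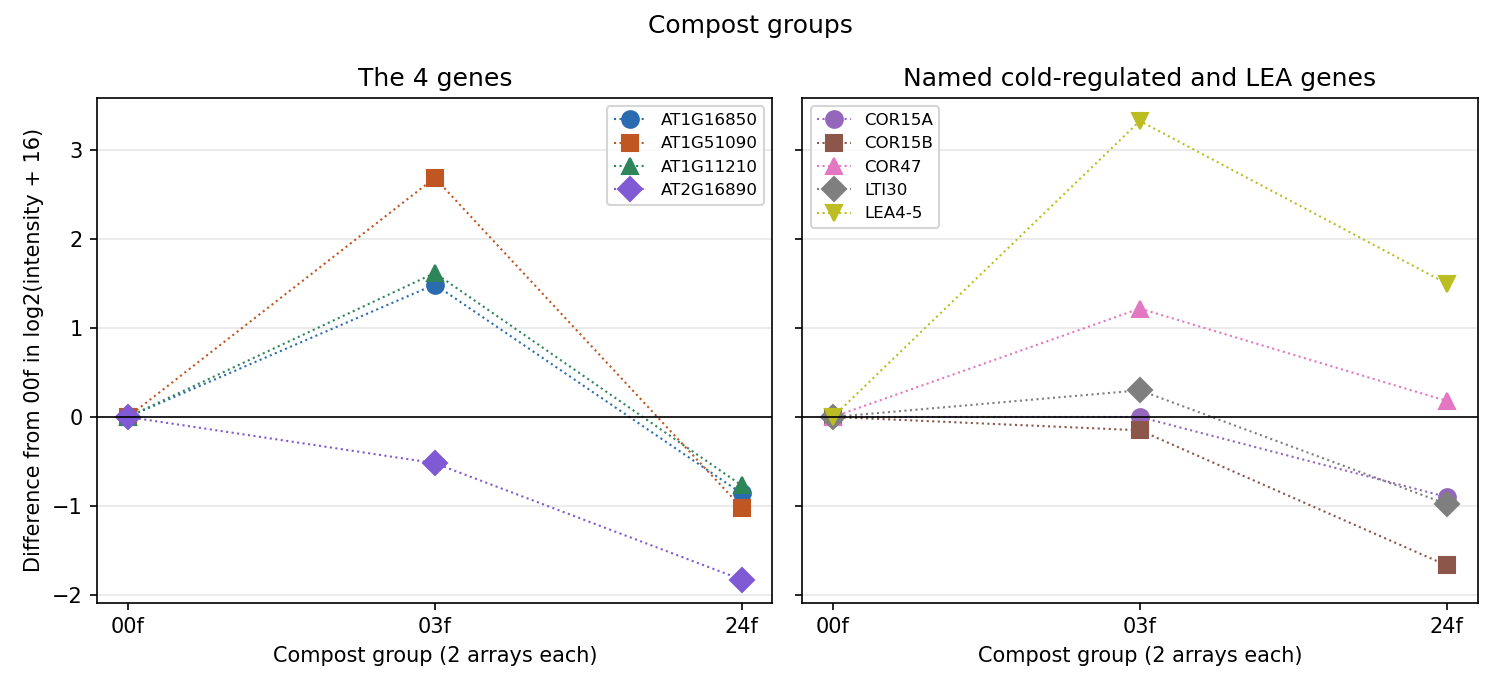
Difference of each compost group from 00f in log2(intensity + 16), for the 4 genes (left) and for named COR and LEA genes (right), with dotted lines joining the values of 1 gene. AT1G51090, AT1G11210 and AT1G16850 are highest in 03f (2.69, 1.62 and 1.49) and below 00f in 24f, whereas AT2G16890 is lower than in 00f in both, and COR15A, COR15B and LTI30 lie near 0 in 03f.

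Ordered by group mean, AT1G16850 was highest in sf6 cold (1148.5), wt cold (1136.2), 03f (1121.2), sf3 cold (1045.1) and sf2 cold (929.4). Each of these groups overlapped its neighbour, followed by a gap to 00f (389.2) and 24f (206.6). AT1G51090 was highest in wt cold (1070.6), then in 03f, sf3 cold and sf6 cold, the last 3 of which overlapped, with sf2 cold (749.8) below them. AT1G11210 ran from 03f (766.9) through the 4 cold groups to 00f, 24f, sf6 drought (67.2), wt drought (56.8) and sf3 control (41.3), and none of the groups below sf2 cold overlapped its neighbour as far as wt control. AT2G16890 was highest in sf6 cold (462.3) and wt cold (423.2), and lowest in wt drought (3.8), in a run of 6 agar groups without cold that overlapped their neighbours. For AT1G16850 and AT1G51090 the 2 lowest groups were control groups that overlapped each other.

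Over the 13 group means of log2(intensity + 16) the 4 genes correlated with each other at 0.81 to 0.96 (Pearson's r), lowest between AT1G11210 and AT2G16890 and highest between AT1G16850 and AT1G51090. Such values are a description, since the points share the cold rise on which the genes were chosen. The genes named next as most alike were picked on the same 13 group means, drought and compost groups included. Their likeness in those groups is therefore no separate result. The choice also depends on the measure. With Spearman's correlation 2 of the 3 genes named for AT1G16850 were again among its 3 most alike, 0 of 3 for AT1G51090, 1 of 3 for AT1G11210 and 0 of 3 for AT2G16890. With a pseudocount of 64 the numbers were 1, 1, 0 and 3 in the same order. The genes most alike to AT1G16850 were LTI30 (0.992), AT1G10410 (0.99) and AT1G80130 (0.987). LTI30, though, differed by 0.30 between 03f and 00f, where AT1G16850 was higher by 1.49. AT1G51090 was most like AT5G42570 (0.994), AT2G24560 (0.991) and AT3G07720 (0.99), all 3 of which were higher in 03f than in 00f, by 2.14, 1.28 and 0.89.

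AT1G11210 had less close company, with AT2G23120 (0.964), PUB19 (0.964) and AT1G68500 (0.963). PUB19, which encodes a U-box ubiquitin ligase, also rose in drying, by 1.11 in sf6 (limma adjusted p = 0.0028) and 1.04 in wt (0.002), and was higher in 03f than in 00f by 2.27. The wt call of PUB19 ended without the 2 arrays whose titles end in a repeat mark (0.0611), and its sf6 call without sf6 control replicate 2 (0.0691). AT2G16890 was most like AT1G61730 (0.993), AT4G37210 (0.992) and PDF2.1 (0.99), a gene of the plant defensin family. These 3 differed between 03f and 00f by -0.29, -0.24 and -0.18 without passing, and all 3 were lower in 24f than in 00f (-0.56, -0.58 and -1.16). The cold changes of the same genes in wt were 1.41, 0.86 and 1.93, smaller than the 4.07 of AT2G16890.

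The genes next along the chromosome were examined after the other lists had been drawn up, taking for each of the 4 the nearest pair on either side with a probe set of their own in the RefSeq order of TAIR10.1. Of these 16 genes 13 were bright enough to be tested in the agar fit. In wt cold 5 of the 13 were called (38.5%), 4 higher and 1 lower, against 47.1% of all probe sets, and their changes lay between -0.53 and 1.5. The share called was 53.8% in sf6 cold, 38.5% in sf3 cold and 30.8% in sf2 cold, against 45.4%, 44.2% and 42.7% of all probe sets. The largest was AT1G16830, the second gene before AT1G16850, at 1.5 (limma adjusted p = 9.14e-05), while AT1G16840 and AT1G16860 on either side of AT1G16850 differed by -0.07 and 0.35 without passing. No neighbour approached the 3.69 to 5.90 of the 4 genes in wt. In drying none of the 13 was called in either line (limma), where 3.91% of all probe sets were called in sf6 and 9.79% in wt. At an unadjusted p under 0.05 there were 2 of the 13 in sf6 and 6 in wt, and 3022 and 4017 of all 17059 probe sets.

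Between 03f and 00f some neighbours moved with the gene beside them and some did not. AT1G16840 and AT1G16860 were higher in 03f than in 00f by 1.58 and 1.55 (limma adjusted p = 6.64e-06 and 9.29e-06), close to the 1.49 of AT1G16850 between them. AT1G11220, the next gene after AT1G11210, was higher by 1.60 (limma adjusted p = 2.16e-05), close to the 1.62 of AT1G11210, but was too dim to be tested on the agar arrays. AT2G16900, near AT2G16890, was higher by 1.45 (limma adjusted p = 9.19e-06) where AT2G16890 was lower by 0.53. AT1G51080, near AT1G51090, was lower by 0.95 (0.00139) where AT1G51090 was higher by 2.69. Of the 13 neighbours tested in the compost fit 4 were higher and 2 lower in 03f than in 00f, or 46.2% called, against 30.3% of all probe sets. In 24f against 00f 2 of the 13 were higher and 4 lower, or 46.2% called, against 42.2% of all probe sets. There AT1G16840 was higher by 0.95 (limma adjusted p = 0.00017) where AT1G16850 was lower (-0.87), and AT1G16860 (0.17) and AT1G11220 (-0.21) did not pass. In 24f against 03f 7 of the 13 were lower and 1 higher, or 61.5% called, against 46.4% of all probe sets. Among them AT1G16840 (-0.62), AT1G16860 (-1.38) and AT1G11220 (-1.81) were lower, as were the genes beside them.

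**Figure D4:**
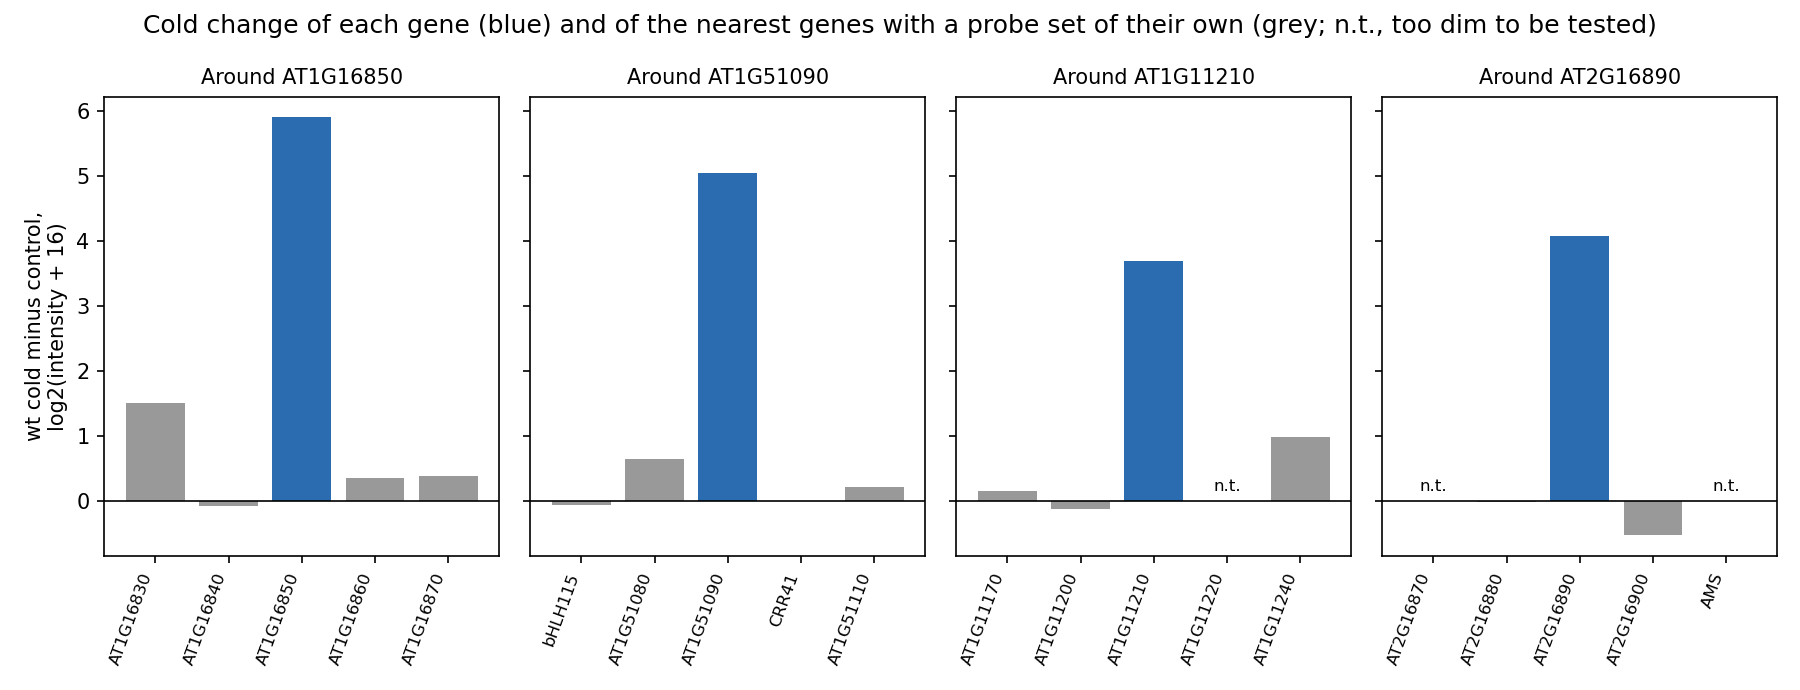
Cold minus control in wt, in log2(intensity + 16), for each of the 4 genes (blue bars) and the nearest pair of genes on either side with a probe set of their own (grey bars), in gene order; n.t. marks genes too dim to be tested. The 4 genes reach 3.69 to 5.90, and the highest neighbour is AT1G16830 at 1.5.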

How the data were processed

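Per the deposited intensity values, every array was scaled by the authors to a trimmed mean of 100.01 (2% trimmed at each end). The software behind these linear probe set intensities is not given in the sources used here. Groups came from the labels. From the intensities, log2(intensity + 16) was fitted with limma 3.58.1 in R 4.3.3 (group means, moderated test with an intensity trend), checked on simulated data. Probe sets below the 25th percentile of the mean were left out, leaving 17059. The 20 agar arrays formed one fit (10 residual and 6.58 prior degrees of freedom) and the 6 compost arrays another (3 and 7.52). P-values were Benjamini-Hochberg adjusted over all probe sets tested (threshold 0.05) in 13 comparisons, and 7 further comparisons, the cold responses and their differences between lines, were fitted as descriptions. SE is of the fitted change, SD over 2 arrays.

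The genes, the gene lists and the tests were chosen with earlier results of these data known. Besides the 4 genes, the rule names the genes ranked next to them in cold, the 3 with the most similar group means, and list members. Genes were named through the platform annotation and RefSeq (TAIR10.1, names and gene order only). Of 22810 probe sets, 13513 name 1 gene, 503 several and 8794 none. Gene lists had few measured members. Measured were 4 of 16 in the list of CBF genes, their targets, COR genes and ZAT12, and 3 of 15 dehydration and abscisic acid genes. For tissue they were 4 of 10 green-tissue markers and 1 of 10 root markers. Protein and promoter sequences were not used here. Alternatives were another pseudocount (1 or 64), no filter, median scaling, quantile normalization, a replicate block, array weights, other sets of arrays in the fit, and leaving out arrays.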

Additional observations from a re-analysis of the deposited data

How the results depend on the processing

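The probe sets compared in drying and control are dim, and the offset of 16 sets much of their change. The median cold change of the 4 genes was 4.72 in sf6, 4.50 in sf3, 4.28 in sf2 and 4.55 in wt, and with a pseudocount of 1 it was 6.10, 5.57, 5.59 and 5.57, with 64 it was 3.29, 3.16, 2.90 and 3.26. Leaving out 1 array gave 4.59 to 4.85 in sf6, 4.31 to 4.61 in sf3, 4.16 to 4.40 in sf2 and 4.53 to 4.62 in wt. The median difference of cold responses, sf3 minus wt, was -0.60, -1.03 with a pseudocount of 1, -0.30 with 64, -0.35 without both repeat1 arrays (wt control replicate 1 and sf6 drought replicate 2), and -0.68 to -0.35 leaving out 1 array.

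The number of the 4 genes called in drying was 2 in each line. It was 1 in each with a pseudocount of 64, when the fit held only the compared groups and without both repeat1 arrays, and leaving out 1 array gave 1 to 2 in sf6 and 1 in wt. AT1G51090 was the gene lost. With a pseudocount of 1 AT1G16850 was called in wt (1.35, limma adjusted p = 0.0153). That call rests on very dim values, 13.9 and 6.7 in wt drought and 2.9 and 3.5 in wt control. The gene passed the filter on low values only through the cold arrays. In sf3 control against wt control the number was 1, and 0 with a pseudocount of 64, no filter, array weights, only the compared groups or without both repeat1 arrays, and 0 to 1 leaving out 1 array. In sf6 control and sf2 control it was 0, and 1 without both repeat1 arrays, with 0 to 1 leaving out 1 array. In sf2 cold against wt cold it was 0, and 1 with a pseudocount of 64 (AT1G51090, -0.48, limma adjusted p = 0.0251). AT2G16890 in 03f against 00f lost its call with no filter (0.0795) and quantile normalization (0.0514) as well. Fits on fewer arrays again tested 17059 probe sets, with fewer residual degrees of freedom. The filter was applied anew to the arrays of each fit, so these were not always the same probe sets. The cause of these moves was not tested.

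Some small differences changed sign. AT1G51090 in the cold response of sf6 minus wt (0.02) was -0.07 with a pseudocount of 64, -0.02 with quantile normalization and -0.08 to 0.12 leaving out 1 array. Its drying response of sf6 minus wt (0.02) was 0.00 with a pseudocount of 64, 0.00 with median scaling, -0.03 with quantile normalization, -0.02 without both repeat1 arrays and -0.08 to 0.12 leaving out 1 array, and that of AT2G16890 (0.24) was 0.00 without both repeat1 arrays. The cold response of sf3 minus wt of AT2G16890 (0.14) was -0.05 with a pseudocount of 64 and -0.15 to 0.42 leaving out 1 array, and that of sf2 minus wt of AT1G11210 (0.26) was 0.00 and -0.22 to 0.75. For AT2G16890 in sf6 control against wt control (-0.01) the values were 0.00 with median scaling, 0.01 with quantile normalization, 0.08 without both repeat1 arrays and -0.13 to 0.11 leaving out 1 array. Leaving out 1 array also gave, against wt control, -0.95 to 0.03 for AT1G11210 in sf6 control, -0.05 to 0.22 for AT1G51090 and -0.57 to 0.00 for AT2G16890 in sf3 control, and -0.97 to 0.01 for AT1G11210, -0.07 to 0.02 for AT1G16850 and -0.06 to 0.36 for AT2G16890 in sf2 control. Against wt cold it gave -0.14 to 0.18 for AT1G16850 in sf6 cold, and -0.30 to 0.06 for AT1G16850 and -0.13 to 0.07 for AT1G11210 in sf3 cold.

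Over all probe sets, the number called in drying ranged from 140 to 1520 in sf6 (667 as reported) and from 562 to 2686 in wt (1670), in 03f against 00f from 3100 to 5843 (5171), and between the lines' control, cold and drought groups from 0 to 171. The replicate block changed none of the counts of the 4 genes, and in drying they were again 2 in sf6 and 2 in wt. Same-numbered arrays deviated together at -0.05 to 0.24 and share only a number.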
